A study of Rattus norvegicus with 12 samples.

Results

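The 6 arrays described here compare cultured rat astrocytes given interferon-γ together with a compound the labels call GW, for 3 h, with untreated cells. They are the 3 arrays of siCon_IFNg_GW and the 3 of siCon, chosen by their titles, out of 12 arrays in the series. Every culture of both groups had been transfected with control siRNA, so that transfection is common to treated and untreated cells. The cells were primary astrocytes from the cerebral cortex of Sprague-Dawley rats 1 day old, kept for 2 days in serum-free medium to deplete microglia and meningeal cells. The other 6 arrays held control siRNA with interferon-γ alone (siCon_IFNg, 3 arrays), whose values are set beside the comparison, and cells given siRNA against SHP before the same 2 agents (3 arrays), which entered only the estimate of the spread. None of the 12 arrays held GW without interferon-γ, so the effect of GW by itself cannot be told from them. The arrays of each group are numbered 1, 2 and 3, and the labels do not say whether they came from separate cultures. The p-values therefore reflect how far these particular arrays differ, and that spread may be technical.

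Interferon-γ acts through a cell-surface receptor and the kinases Jak1 and Jak2. Its early target genes, such as Irf1, often carry short DNA elements called GAS, and Irf1 in turn drives further genes through elements called ISRE. Immediate-early genes, such as Fos, Jun and Egr1, are switched on within minutes of many stimuli without new protein synthesis, and many are switched off again within hours. In astrocytes interferon-γ is known for inducing chemokines, interferon-inducible GTPases and antigen presentation genes. The question of the comparison is which genes stayed above or below the untreated level when both agents were given.

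The labelled cell type was checked against marker genes. Of 13 measured astrocyte markers 12 were above background on all 6 arrays, where background is the 95th percentile of olfactory and vomeronasal receptor genes on the same array (5.29 to 5.49 on the log2 scale of the values). Gfap, the intermediate filament of astrocytes, was at 11.72, 11.96 and 12.04 in siCon and at 11.81, 12.04 and 12.06 in siCon_IFNg_GW. All 18 microglia markers were above background on the 6 arrays too, so a change cannot be assigned to astrocytes alone. The arrays numbered 1 stood apart: meningeal and vascular markers had a median of 6.97 and 7.07 on the number 1 arrays of siCon and siCon_IFNg_GW, and of 8.90 to 8.99 on 3 of the other 4, with siCon number 3 highest. Several interferon-induced genes, such as Gbp2 and Cxcl10, were higher on siCon number 1 than on numbers 2 and 3. The change from untreated cells to both agents differed between number 1 and the other numbers in 9 genes (0.0495%). Counts of changed genes are therefore also given without number 1.

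With interferon-γ and GW, 157 of 18166 genes differed from untreated cells at an adjusted p under 0.05 (limma over all 12 arrays, Benjamini-Hochberg adjustment; 0.864% of genes tested). Of these 106 were higher (0.584%) and 51 lower (0.281%), and in all 157 the values of the 2 groups did not overlap, which held for 8.1% of all genes upwards and 10.1% downwards. Of the 106 higher genes 53 rose more than 2-fold, with a median difference of 0.99 on the log2 scale, while of the 51 lower genes 2 fell that far and the median was -0.59. The median over all genes was -0.02. All 157 had the same sign in the pairs of arrays numbered 1, 2 and 3, which follows from the lack of overlap.

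How many genes passed depended strongly on single arrays. With the replicate number as a block, 1242 genes passed (534 higher, 2.94%, and 708 lower, 3.9%), among them all 157. Without number 1 in all groups, 1028 passed (602 higher, 3.31%, and 426 lower, 2.35%), with 153 of the 157 among them, while without number 3 only 4 passed and without number 2 the limma count was 0, with 788 genes at an unadjusted p under 0.05. Leaving out single arrays gave 81, 23 and 35 genes for siCon numbers 1, 2 and 3, and 59, 27 and 73 for siCon_IFNg_GW numbers 1, 2 and 3. In each of these fits all 157 genes kept their sign. Since the 2 groups did not overlap in these genes, leaving out arrays or adding the block could not turn it.

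**Figure D1:**
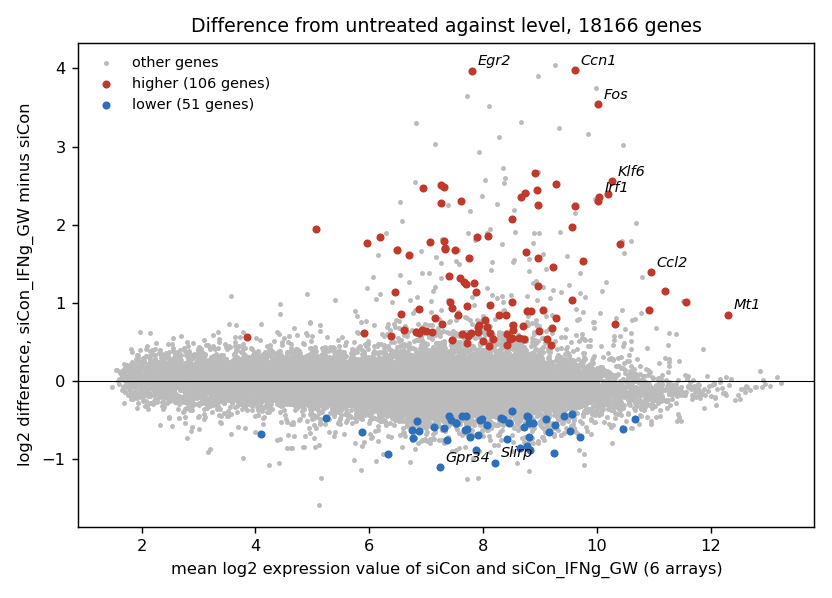
Log2 difference of siCon_IFNg_GW from siCon (vertical axis) against the mean log2 expression value over the 6 arrays (horizontal axis) for 18166 genes, with the 106 higher genes in red, the 51 lower in blue and all others in grey. The rises reach 3.98 (Ccn1), while the lower genes go down only to -1.10 (Gpr34); some grey genes lie as far from 0 as the red ones because their arrays spread more.

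The immediate-early transcription factors stood highest above the untreated level. All 28 measured members of the list were above untreated, with a median difference of 2.16 on the log2 scale, and 9 of them passed, all higher, where 0.584% of all genes did. With the block 27 of 28 passed, against 2.94% of all genes. Without siCon number 2, siCon number 3 or siCon_IFNg_GW number 2, 4 passed in each case, and 5 without siCon_IFNg_GW number 1. In the pairs numbered 1, 2 and 3 the median difference of the list was 2.46, 2.38 and 1.84.

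Fos, a subunit of the AP-1 transcription factor, was at 9.24, 7.74 and 7.77 on siCon arrays 1, 2 and 3 and at 12.37, 11.80 and 11.20 on the siCon_IFNg_GW arrays. The lowest treated array thus lay above the highest untreated one, and siCon number 1 was higher than its fellows. The 3 arrays of each group gave Fos a rise of 11.6-fold (log2 3.54, SE 0.48, adjusted p = 0.0103 by limma). Its AP-1 partner Jun went from 9.19, 8.88 and 8.92 to 11.78, 11.43 and 10.97, and rose by 2.40 (SE 0.19, adjusted p = 2.64e-04). All 3 untreated arrays of Jun lay below all 3 treated ones.

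Klf6, a zinc finger factor of the Krüppel-like family, had the smallest p of all genes (log2 2.56, SE 0.15, limma adjusted p = 9.05e-05). Its values were 9.22, 8.76 and 8.99 in siCon and 11.70, 11.56 and 11.39 in siCon_IFNg_GW. Atf3, a stress-induced factor of the ATF/CREB family, was at 8.07, 7.97 and 8.06 in siCon and at 11.05, 10.48 and 10.11 with both agents, a rise of 2.52 (SE 0.18, adjusted p = 2.18e-04). Egr2, a zinc finger factor, rose by 3.97 (SE 0.75, adjusted p = 0.0385), from 7.48, 5.14 and 4.86 to 10.80, 9.63 and 8.95. For Egr2 the arrays numbered 2 and 3 of siCon lay below background and only number 1 was above it, so the size of its rise is less certain than those of Fos and Jun. Klf2 and Klf4, further Krüppel-like factors, rose by 2.30 and 1.78 (adjusted p = 0.0266 and 0.0244), and the small Maf protein gene Mafk by 1.13 (adjusted p = 2.64e-04).

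Other members had large differences that did not pass, and their arrays spread widely. Egr1, the best known member of the Egr family, was at 10.03, 7.14 and 7.17 in siCon and at 12.47, 11.73 and 11.38 in siCon_IFNg_GW. The difference was 3.75 (SE 1.02, limma adjusted p = 0.14; adjusted p = 0.0082 with the block). The orphan nuclear receptor gene Nr4a1 had 3.90 and the mRNA decay factor gene Zfp36 had 3.02 (adjusted p = 0.12 and 0.11; 0.0013 and 2.45e-04 with the block). Nr4a1, Zfp36, Klf2 and Klf4 were named after their values were seen.

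Under interferon-γ alone the median difference of the same list was 0.29, and 1 member, Klf6, passed over all 12 arrays, where 0.121% of all genes did. Without number 1, 7 of 28 were higher (3.05% of all genes) and 2 lower (1.66%), and members differed among themselves. Egr2, Atf3 and Jun had 1.63, 1.03 and 0.95 over all 12 arrays (limma adjusted p = 0.92, 0.089 and 0.13; 0.0051, 0.0017 and 0.0028 without number 1). For Fos the values of siCon_IFNg were 9.33, 7.68 and 7.999, array by array close to siCon, with a difference of 0.09 from siCon (limma adjusted p = 1.00) and of 3.46 between siCon_IFNg_GW and siCon_IFNg (adjusted p = 0.0125). Klf6 was in between: interferon-γ alone gave 1.25 (adjusted p = 0.025) and the addition of GW a further 1.31 (adjusted p = 0.0077). These contrasts share arrays with the comparison against untreated cells and are given only side by side.

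**Figure D2:**
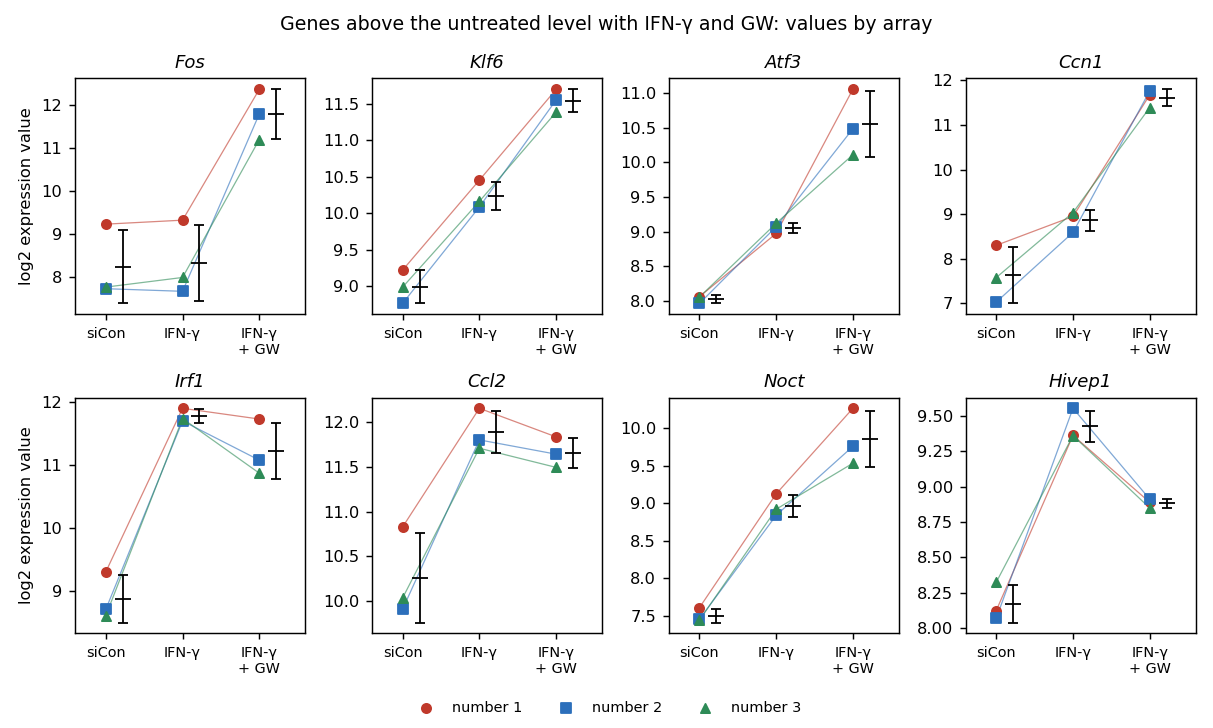
Log2 expression value (vertical axes) of 8 genes on the arrays of siCon, siCon_IFNg and siCon_IFNg_GW (horizontal axes); symbols and lines join arrays of the same number, and black bars give the mean ± SD of 3 arrays. In Fos, Klf6, Atf3, Ccn1 and Noct the arrays with both agents are the highest, while Irf1, Ccl2 and Hivep1 have their highest mean with interferon-γ alone and stay above siCon with both.

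Irf1 was the interferon-signalling gene that stayed up. It was at 9.30, 8.70 and 8.60 in siCon, at 11.90, 11.70 and 11.73 with interferon-γ alone and at 11.73, 11.07 and 10.87 with both agents. Treated and untreated arrays did not overlap, and over 3 arrays per group Irf1 was 5.11-fold above untreated cells (log2 2.35, SE 0.23, adjusted p = 0.00168 by limma). Against interferon-γ alone it differed by -0.55 (adjusted p = 0.37; -0.74 and adjusted p = 0.0019 without number 1). Of the 18 measured genes of the interferon signalling list Irf1 alone passed over all 12 arrays, where 0.584% of all genes were called higher. With the block Stat3 (0.51) and Socs3 (1.94) passed too, against 2.94% of all genes. The list's median was 0.11, against 1.09 under interferon-γ alone.

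The chemokine gene Ccl2, which attracts monocytes, also stayed high. It was at 10.83, 9.91 and 10.04 in siCon and at 11.83, 11.64 and 11.49 with both agents, 2.63-fold above untreated cells (log2 1.39, SE 0.21, adjusted p = 0.0169). With interferon-γ alone the arrays were at 12.15, 11.80 and 11.70. Noct, which encodes the clock-linked phosphatase nocturnin, had 7.61, 7.45 and 7.44 in siCon, 9.12, 8.84 and 8.92 with interferon-γ alone and 10.26, 9.76 and 9.53 with both. It was above untreated cells by 2.35 (SE 0.19, limma adjusted p = 3.55e-04) and by 0.89 above interferon-γ alone, which did not pass over all 12 arrays (adjusted p = 0.068; 0.0027 without number 1).

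A further 3 genes, chosen after their values were seen, differed from untreated cells under interferon-γ and under both agents. Hivep1, a large zinc finger factor, was at 8.12, 8.07 and 8.32 in siCon, at 9.36, 9.55 and 9.36 with interferon-γ and at 8.89, 8.91 and 8.85 with both. With both agents it lay 0.71 above untreated cells (SE 0.09, limma adjusted p = 0.0085) and 0.54 below interferon-γ alone (log2 difference -0.54, adjusted p = 0.028), so its level was between the other groups and overlapped neither. S1pr3, a receptor for sphingosine 1-phosphate, and the ubiquitin ligase gene Rnf19a had 0.73 and 0.53 with both agents, and 0.95 and 0.76 with interferon-γ alone.

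Promoter sequences are shown for genes that illustrate both outcomes: Irf1, which stayed up, Socs1, Gbp2 and Gbp7, which did not pass against untreated cells, and the immediate-early genes Egr2 and Klf6. They are RefSeq sequences of build GRCr8, written 5′ to 3′ along the gene, and stop before the annotated start. Capitals mark matches on either strand to GAS (TTCNNNGAA), CRE (TGACGTCA), AP-1 (TGANTCA), the ISRE core or the CArG box, the element bound by serum response factor.
Irf1 (chr10:38417763-38417831, plus strand): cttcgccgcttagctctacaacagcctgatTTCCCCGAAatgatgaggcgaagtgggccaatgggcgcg
Socs1 (chr10:5389348-5389512, plus strand): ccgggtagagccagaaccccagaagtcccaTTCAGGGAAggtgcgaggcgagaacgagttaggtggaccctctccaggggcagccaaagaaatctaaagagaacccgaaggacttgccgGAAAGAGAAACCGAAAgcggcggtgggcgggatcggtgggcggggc
Gbp2 (chr2:234005625-234005726, plus strand): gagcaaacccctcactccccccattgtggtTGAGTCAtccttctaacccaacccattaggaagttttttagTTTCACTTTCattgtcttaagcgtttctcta
Gbp7 (chr2:233948766-233948887, plus strand): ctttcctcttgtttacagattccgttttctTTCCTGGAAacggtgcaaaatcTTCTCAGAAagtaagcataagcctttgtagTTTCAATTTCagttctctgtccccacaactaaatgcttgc
Egr2 (chr20:21054485-21054554, minus strand): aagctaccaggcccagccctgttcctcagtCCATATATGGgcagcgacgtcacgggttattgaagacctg
Klf6 (chr17:69458640-69458709, minus strand): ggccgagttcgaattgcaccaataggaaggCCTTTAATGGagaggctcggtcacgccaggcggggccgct

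The GAS match of Irf1 began 142 bases before the start, and the capitals in Socs1 hold a GAS match and a pair of ISRE core matches that overlap each other. Gbp2 holds an AP-1 and an ISRE core match, and Gbp7 a pair of GAS matches and an ISRE core match. Egr2 and Klf6 each hold a CArG box. Among the 80 higher genes with a promoter in the table, 4 (5%) held a CArG box in the 250 bases before the start, against 166 of 13757 promoters in all (1.21%). CRE matches were in 4 of the 80 (5%) against 2.22%, GAS matches in 3 (3.75%) against 6.8%, AP-1 matches in 1 (1.25%) against 5.68% and ISRE core matches in 0 against 3.14%. Of 42 lower genes with a promoter, 4 held a GAS match (9.52%), 1 a CRE and 1 an ISRE core match (2.38% each), and 0 an AP-1 match or CArG box. These counts are small and describe letters only.

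For the GTPases and antiviral genes that interferon induces, no difference from untreated cells passed over all 12 arrays with both agents. The direction of their medians changed when single arrays were left out, but not when a whole number was left out of all groups. The 11 interferon-inducible GTPases, which restrict intracellular pathogens, had a median difference of -0.23 from siCon, with 3 above and 8 below, and 0 passed by limma with or without the block. Without number 1, 1 was higher and 1 lower, against 3.31% and 2.35% of all genes. The GTPase median was 0.64 without siCon number 1, 0.24 and 0.22 without siCon_IFNg_GW numbers 2 and 3, -0.59 and -0.65 without siCon numbers 2 and 3, and -0.96 without siCon_IFNg_GW number 1. In the pairs numbered 1, 2 and 3 it was -0.14, -0.38 and -0.08. With number 1, 2 or 3 left out of all groups it was -0.23, -0.16 and -0.31. Under interferon-γ alone their median was 1.95, with 0 of 11 past the threshold over all 12 arrays by limma and 11 of 11 higher without number 1, against 3.05% of all genes. The 37 antiviral genes outside the GTPases had a median of -0.19, with 29 below untreated, and 0 passed with or without the block. Of these genes 1 was higher and 3 lower without number 1, against 3.31% and 2.35% of all genes. The antiviral median was 0.28 without siCon number 1, 0.07 and 0.04 without siCon_IFNg_GW numbers 2 and 3, -0.45 and -0.52 without siCon numbers 2 and 3, and -0.72 without siCon_IFNg_GW number 1. With number 1, 2 or 3 left out of all groups the antiviral median was -0.20, -0.10 and -0.24. Under interferon-γ alone the antiviral median was 1.09, with 0 of 37 past the threshold over all 12 arrays. Without number 1, 31 were higher under interferon-γ alone, against 3.05% of all genes.

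Cxcl9, which draws activated T cells, was at 7.04, 5.47 and 5.37 in siCon, at 9.61, 12.19 and 11.64 with interferon-γ and at 6.75, 5.19 and 5.11 with both agents. The groups with both agents and without treatment overlapped, at or near background in numbers 2 and 3. The difference was -0.28 (SE 0.87, 95% interval -2.19 to 1.64, limma adjusted p = 0.96). For Cxcl10, another ligand of the same receptor, siCon had 10.52, 8.86 and 8.59 and siCon_IFNg_GW 10.91, 9.01 and 9.11, a difference of 0.35 (95% interval -0.88 to 1.59, adjusted p = 0.91). With interferon-γ alone Cxcl10 had 12.22, 12.50 and 12.15, above all 6 of these arrays.

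Socs1, a feedback inhibitor of Jak kinases, was at 6.79, 6.29 and 6.45 in siCon and at 6.75, 6.48 and 6.49 with both agents, against 8.59, 10.90 and 10.82 with interferon-γ alone. Its difference from untreated cells was 0.07 (95% interval -1.39 to 1.53; adjusted p = 0.99). The GTPase gene Gbp2 had 10.01, 8.12 and 8.23 in siCon, 10.41, 11.21 and 10.62 with interferon-γ and 9.89, 8.49 and 8.52 with both, a difference of 0.18 (95% interval -0.92 to 1.28, adjusted p = 0.95) from untreated cells. For Gbp2 number 1 was the highest array in untreated cells and with both agents, and the lowest with interferon-γ alone. Gbp7, of the same family, had 10.09, 8.43 and 8.24 in siCon and 9.83, 7.96 and 7.94 with both agents, a difference of -0.35 (95% interval -1.66 to 0.96, limma adjusted p = 0.915). These intervals are wide, and an adjusted p over the threshold does not show that the levels were the same.

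**Figure D3:**
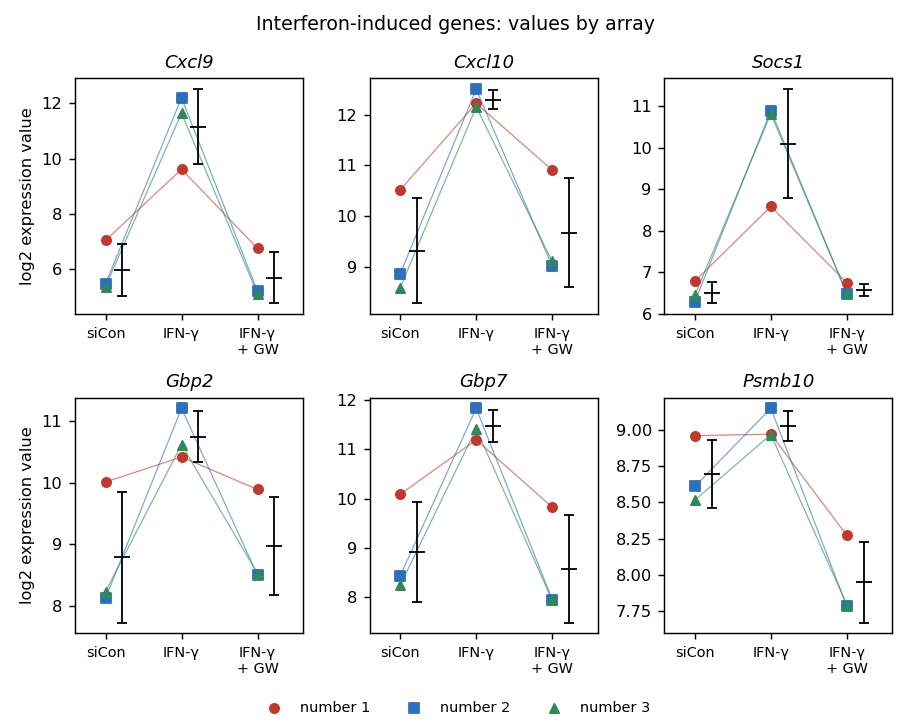
Log2 expression value (vertical axes) of 6 interferon-induced genes on the arrays of siCon, siCon_IFNg and siCon_IFNg_GW (horizontal axes), with symbols for the array number and black bars for the mean ± SD of 3 arrays. Arrays with both agents overlap those of siCon in Cxcl9, Cxcl10, Socs1, Gbp2 and Gbp7 but not in Psmb10, and in Gbp2 number 1 (red) is the highest of siCon (10.01) and of both agents (9.89) and the lowest of interferon-γ alone (10.41).

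The antigen presentation genes lay slightly below untreated cells. Of 23 measured members 22 were below, with a median of -0.26, and 7 had groups that did not overlap downwards, where 10.1% of all genes did; 0 passed by limma. The median ran from -0.54 without siCon_IFNg_GW number 1 to -0.04 without siCon number 1. With the block 3 were lower, against 3.9% of all genes: Psmb10, a subunit of the immunoproteasome (-0.75), RT1-DMb, which loads class II molecules (-0.60), and the protease gene Ctss (-0.71). Psmb10 was at 8.96, 8.61 and 8.52 in siCon and at 8.27, 7.78 and 7.79 with both agents (SE 0.16, limma adjusted p = 0.071; 0.021 with the block; 0.0034 without number 1). Each treated array was below each untreated one. RT1-DMb did not pass without number 1 (limma adjusted p = 0.065), and 1 member was lower with the block and without number 1. Of the 14 genes of the costimulation and adhesion list, which also holds the caspase gene Casp1, 0 passed. With the block the adhesion molecules Icam1 (1.64) and Vcam1 (0.81) were higher, against 2.94% of all genes. Cd80 (-0.53) and Casp1 (-0.76) were lower with the block, against 3.9% of all genes. Vcam1 and Casp1 were named after their values were seen.

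Part of the genes that restrain MAP kinase signalling, and 1 ligand of the EGF receptor, rose. Of 20 measured members of the list that holds both kinds 19 were above untreated, the median was 0.78, and 6 passed, all higher, where 0.584% of all genes did (12 with the block, against 2.94%). Hbegf, a ligand of the EGF receptor, was at 7.80, 7.32 and 7.47 in siCon and at 10.32, 9.92 and 9.57 with both agents, a 5.31-fold rise (log2 2.41, SE 0.31, adjusted p = 0.0074). The treated arrays were all above the untreated ones. Errfi1, a feedback inhibitor of the EGF receptor, rose by 1.54 and Spry4, of the Sprouty inhibitors, by 1.68 (limma adjusted p = 0.0052 and 0.0075). The phosphatases of MAP kinases Dusp6, Dusp8 and Dusp16 rose by 1.57, 1.79 and 0.97. Dusp1 had the largest difference of all genes tested, 4.05, but its values of 8.45, 6.60 and 6.66 in siCon and 12.30, 11.11 and 10.44 with both agents had a wide spread and it did not pass (95% interval 1.82 to 6.27, limma adjusted p = 0.11; 0.0021 with the block). The Dusp genes were named after their values were seen.

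Targets of YAP, the co-activator of the Hippo pathway, included the gene with the largest difference among those that passed. Ccn1, a matricellular protein gene, went from 8.30, 7.03 and 7.58 to 11.68, 11.76 and 11.39, which is 15.7-fold (log2 3.98, SE 0.29, adjusted p = 2.18e-04 by limma). Amotl2, which binds YAP, rose by 1.85 and Lats2, a kinase that inhibits YAP, by 1.21 (adjusted p = 0.0074 and 0.0169). These 3 were the ones that passed among 11 measured targets, where 0.584% of all genes were called higher. With the block 5 were higher, against 2.94% of all genes, and without number 1, 7 were higher, against 3.31%. The median of the 11 targets was 0.63, with 10 above untreated.

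Of the 20 Id, BMP and Notch genes 16 were above untreated, with a median of 0.32. As higher 2 passed, against 0.584% of all genes. With the block 5 were higher, against 2.94% of all genes, and without number 1, 7 were higher, against 3.31%. Id1, an inhibitor of differentiation factors and a target of BMP signals, rose by 1.65 (SE 0.19, limma adjusted p = 0.0043) from 8.32, 7.76 and 7.74 to 9.74, 9.51 and 9.51, and its relative Id3 by 1.04 (adjusted p = 0.0274). Untreated and treated arrays were apart in both. With interferon-γ alone Id1 was at 7.69, 7.19 and 7.11, below the siCon array of the same number each time (-0.61, adjusted p = 0.55). Hes1, a Notch target, had 2.18 against untreated (adjusted p = 0.057; 3.21e-04 with the block), with values of 8.02, 7.07 and 7.27 in siCon and 10.34, 9.40 and 9.17 with both agents.

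The stress response list had a median of 0.49, with 3 of 26 measured members past the threshold, all higher, against 0.584% of all genes (12 with the block, against 2.94%). Chac1, which breaks down glutathione and is induced by the integrated stress response, rose by 1.96 (SE 0.25, limma adjusted p = 0.0074), from 8.31, 8.63 and 8.81 to 10.88, 10.40 and 10.36. Gadd45g, a growth arrest gene, rose by 2.44 and the Polo-like kinase gene Plk3 by 1.70. Of 5 measured genes for metallothioneins and zinc export 2 passed as higher, where 0.584% of all genes did. Mt1, a metal-binding protein gene, rose by 0.85 (limma adjusted p = 0.0043) and the zinc exporter gene Slc30a1 by 0.61 (limma adjusted p = 0.016). With the mean of a gene's rows 1 of the 5 passed. Without number 1, 3 were higher, against 3.31% of all genes, and 1 lower, against 2.35%. For Mt1 the untreated arrays were at 11.90, 11.88 and 11.89 and the treated ones at 12.91, 12.72 and 12.58. A rise of 1.8-fold was thus far outside the spread of the untreated arrays.

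Among the 15 measured clock genes Noct, Nfil3 and Cry1 passed. Nfil3, a repressor of D-box genes, rose by 2.28 (SE 0.25, limma adjusted p = 0.0033) from 6.28, 5.95 and 6.13 to 8.85, 8.36 and 7.98, and the core clock repressor gene Cry1 by 0.62 (adjusted p = 0.022). The list had a median of 0.59 with 13 above untreated. The 3 calls stand against 0.584% of all genes, and the 7 made with the block against 2.94%. Of the 18 LXR receptor and target genes 1 passed, Srebf1, a regulator of lipid synthesis, where 0.584% of all genes were called higher. Srebf1 rose by 0.90 (SE 0.15, limma adjusted p = 0.021), from 8.75, 8.19 and 8.23 to 9.23, 9.33 and 9.32. Abca1, the cholesterol exporter that LXR induces, had 10.01, 10.36 and 10.35 in siCon and 10.14, 10.96 and 11.07 with both agents, a difference of 0.48 (95% interval 0.02 to 0.94, limma adjusted p = 0.42; 0.0042 without number 1), with overlapping groups. The median of that list was -0.10 and that of the 14 cholesterol synthesis and uptake genes -0.03 (0.01 after quantile normalization). Of the latter 0 passed the threshold, and Insig1 (0.83) and Idi1 (0.80) were higher with the block, against 2.94% of all genes. Nr0b2, which encodes SHP, was below background on all 6 arrays. None of the 17 nuclear receptor and corepressor genes passed by limma, with or without the block. Without number 1, 1 of the 17 was higher, against 3.31% of all genes.

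**Figure D4:**
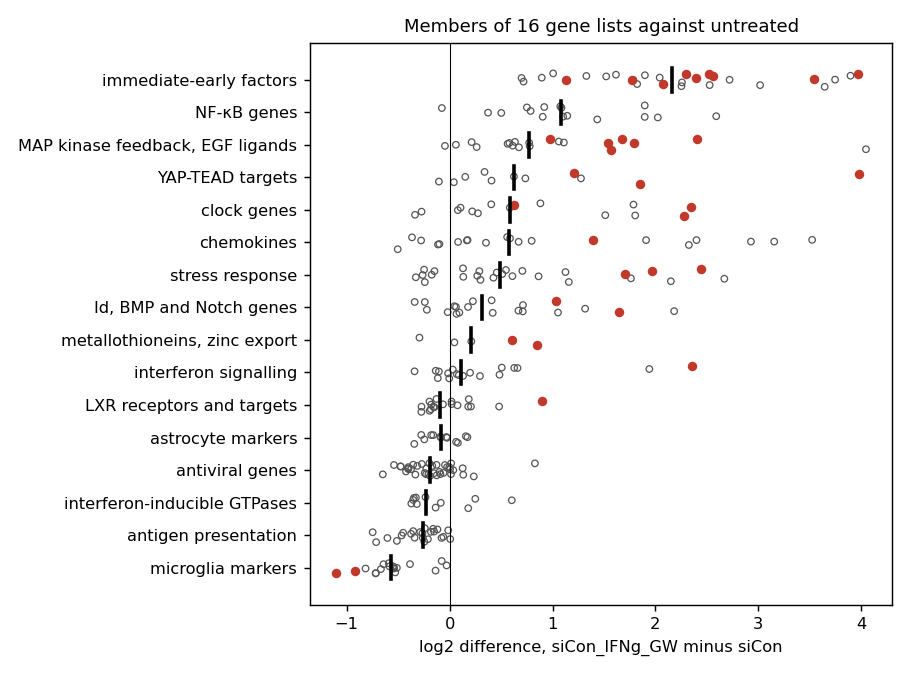
Log2 difference of siCon_IFNg_GW from siCon (horizontal axis) for each measured member of 16 gene lists (vertical axis); filled red points passed the threshold, open points did not, and black bars are medians. The immediate-early factors lie furthest above 0 (median 2.16) and the microglia markers furthest below (-0.57), with the medians of the antiviral genes and GTPases at -0.19 and -0.23.

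NF-κB genes lay above untreated cells without passing over all 12 arrays, while the inflammatory list was divided. Of 16 measured NF-κB subunits, targets and feedback genes 15 were above untreated, with a median of 1.08; 0 passed by limma, 10 with the block (2.94% of all genes) and 14 without number 1 (3.31%), all higher. Nfkbia, the inhibitor of NF-κB, had 2.02 (limma adjusted p = 0.16; 0.0099 with the block). The median of the 20 chemokines was 0.57 (1.17 without siCon number 1, 0.36 without siCon number 2 and 0.28 without siCon_IFNg_GW number 1). Of these genes Ccl2 passed, where 0.584% of all genes were called higher. With the block 5 were higher, against 2.94% of all genes, among them Cxcl1 (3.15) and Ccl7 (1.91). The neutrophil chemokine gene Cxcl1 was at 8.85, 7.86 and 8.10 in siCon and at 11.71, 11.42 and 11.13 with both agents, with no overlap. Ptgs2, the inducible cyclooxygenase, had 8.26, 7.37 and 7.52 in siCon and 11.80, 10.76 and 10.29 with both, a difference of 3.23 (SE 0.73, adjusted p = 0.083; 0.0023 with the block). The 24 inflammatory genes had a median of 0.05, with 13 above and 11 below untreated, and 0 past the threshold. With the block 6 were higher and 3 lower, against 2.94% and 3.9% of all genes. The nitric oxide synthase gene Nos2 had 5.51, 5.09 and 4.89 in siCon and 6.31, 5.25 and 5.21 with both agents, near background and overlapping.

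Further rises among the 15 largest that passed belonged to no list. Pvr, an adhesion molecule of the nectin-like family, rose by 2.66 and Rnd1, a small GTPase gene, by 2.51. The linker histone gene H1f6 rose by 2.48, Ptx3, a soluble pattern recognition molecule, by 2.47 and Flrt3, a membrane adhesion protein, by 2.30. Rnd1 and Ptx3 had 1.73 and 1.81 under interferon-γ alone, and H1f6 and Flrt3 had -0.17 and 0.28 (limma adjusted p = 0.089, 0.20, 1.00 and 1.00). Pvr had 1.52 under interferon-γ alone (limma adjusted p = 0.60). Without number 1 Pvr, Rnd1 and Ptx3 had 1.11, 1.42 and 2.01 under interferon-γ alone (limma adjusted p = 0.0012, 0.0057 and 0.0046). In the same fit H1f6 and Flrt3 had -0.18 and 0.30 (limma adjusted p = 0.83 and 0.33).

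Microglia markers lay below the untreated level. All 18 measured markers were lower, with a median of -0.57, and 2 passed over all 12 arrays, where 0.281% of all genes were called lower. With the block 15 passed against 3.9%, and without number 1, 9 passed against 2.35%. In the pairs numbered 1, 2 and 3 the median of the markers was -0.84, -0.59 and -0.32. Without siCon number 1 it was -0.35, so the size of the fall depended on that array. Gpr34, a receptor of microglia for lysophosphatidylserine, had the largest fall of all genes that passed. It was at 7.97, 7.79 and 7.62 in siCon, at 6.75, 7.04 and 6.93 with interferon-γ and at 6.63, 6.65 and 6.79 with both, and fell 2.14-fold (log2 -1.10, SE 0.13, adjusted p = 0.0057). Tyrobp, an adaptor of microglial surface receptors, went from 10.03, 9.64 and 9.45 to 8.51, 8.85 and 9.003 (-0.92, SE 0.17, adjusted p = 0.038). The sum of the log2 values of the 18 markers was 152.8 to 165.3 in siCon and 145.2 to 150.7 with both agents, so the groups did not overlap. This is a sum of logarithms and not an amount of RNA. None of the markers was below background. In these bulk samples fewer microglia and less RNA per cell cannot be told apart. Microglia also express interferon-induced and antigen presentation genes, and the part of the marker decline in the results for those genes was not tested.

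The other genes that fell did so by small amounts. Slirp, which stabilises mitochondrial mRNAs, went from 8.69, 8.89 and 8.62 to 7.34, 7.83 and 7.90 and fell 2.06-fold (log2 -1.04, SE 0.16, limma adjusted p = 0.016). Tet1, an enzyme that oxidises methylated cytosine, fell by 0.93 on the log2 scale, and its level with interferon-γ alone was 5.71, 6.18 and 6.01, similar to 6.03, 5.64 and 5.95 with both agents. Arl11, a small GTPase gene, fell by 0.88, with 7.38, 7.29 and 7.39 under interferon-γ alone and 7.39, 7.44 and 7.46 with both. Abcc4, an efflux pump of cyclic nucleotides, was at 9.02, 9.28 and 9.22 in siCon, at 9.18, 9.20 and 9.18 with interferon-γ alone and at 8.26, 8.52 and 8.58 with both. It fell by 0.72 against untreated cells (log2 -0.72, SE 0.11, adjusted p = 0.014) and by 0.73 against interferon-γ alone (log2 -0.73, adjusted p = 0.013). The rest of the 15 largest falls ran from -0.69 to -0.88 and were those of Rida, Nme7, Tmem184c, the p53 target Sesn1, Tmbim4, Tm4sf1, the ribonuclease gene Rnase4, Spa17 and Cep15. The call for Sesn1 ended without number 1 (adjusted p = 0.058).

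**Figure D5:**
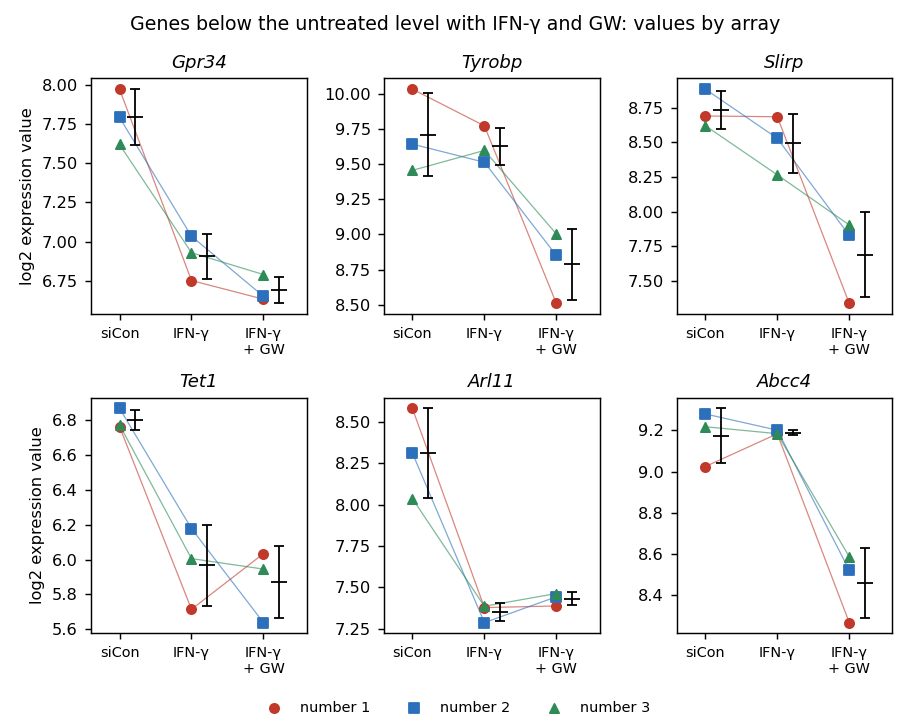
Log2 expression value (vertical axes) of 6 genes that fell, on the arrays of siCon, siCon_IFNg and siCon_IFNg_GW (horizontal axes), with symbols for the array number and black bars for the mean ± SD of 3 arrays. Arrays with both agents lie below siCon in each; Gpr34, Tet1 and Arl11 are as low or nearly as low with interferon-γ alone, while Tyrobp, Slirp and Abcc4 are not.

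Lists of other cell types and functions had medians between -0.19 and -0.00 over the 6 arrays. Astrocyte markers had a median of -0.08, meningeal and vascular markers -0.09, oligodendrocyte markers -0.12, neuron markers -0.00 (0.01 after quantile normalization), cell cycle genes -0.19 and ribosomal protein genes -0.15. Of these lists 0 members passed by limma over all 12 arrays. With the block 1 of 23 cell cycle genes was lower, against 3.9% of all genes. All 11 ribosomal protein genes and 19 of 23 cell cycle genes were below untreated. Without number 1, 2 of 12 meningeal and vascular markers were lower, against 2.35% of all genes. The cell cycle median was 0.25 without siCon_IFNg_GW number 1 and -0.47 without siCon number 1, and the meningeal and vascular median was 0.10 and -0.55 in the same order. Of the 13 genes of the gp130 receptor family and its ligands 0 passed by limma over all 12 arrays, while with the block 5 were higher (2.94% of all genes) and 1 lower (3.9%), and the median was 0.23. Lif, a ligand, had 3.12 (adjusted p = 0.11; 0.0032 with the block) and Cntf, another ligand, -0.76 (adjusted p = 0.11; 0.0018 with the block). Lif was at 7.90, 6.18 and 6.06 in siCon and at 10.84, 9.41 and 9.25 with both agents, with no overlap.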

How the data were processed

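The table deposited by the authors held log2 expression values of 12 whole-transcript arrays. Labelled cDNA was made from total RNA, per the labels' protocols. The steps by which the authors corrected background, summarised probes and normalized were not given in the sources used here. That the scale is log2 follows from how far the values range, and no source states it. The series text names 4 samples taken over from an earlier study, without saying which arrays they are.

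Of 36685 rows, 18511 carried a single gene symbol, 575 carried several and 17599 carried none; 18394 were matched by Entrez ID to RefSeq (GRCr8), which changed 0 symbols. For 291 genes with several rows the row with the highest mean was used, which left 18166 genes. Background came from 1344 olfactory and vomeronasal receptor genes.

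A linear model with 4 group means over all 12 arrays was run in limma 3.58.1 (R 4.3.3), with moderated variances. Genes passed at a Benjamini-Hochberg adjusted p under 0.05. Intervals are limma's 95% intervals. Where adjusted p-values are given without a name, they are limma's. The number of arrays, 3 per group, limits the precision. In simulated data with no shift between replicate numbers, 100 genes were changed by 1 and 100 by 2 on the log2 scale. For this comparison 84% and 96% of them were recovered among 18166 genes, with 12 false calls. The real arrays do hold such shifts, and of 173 genes that differed by more than 2-fold 55 passed. The simulated shares therefore do not measure how many changes were found in the real data. Figures were drawn with matplotlib 3.10.9.

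Named genes were the 15 largest rises and 15 largest falls that passed without overlap, up to 3 members of each of 26 lists with the smallest p, and 17 fixed genes, or are marked as named after their values were seen. The comparison, members and lists (511 memberships, 453 measured) were chosen with earlier results of these data known. Deviations from group means correlated by 0.63 to 0.77, 0.48 to 0.58 and 0.43 to 0.55 between same-numbered arrays, for numbers 1, 2 and 3. Such deviations cancel out within a group, so a shift of number 1 alone would also make numbers 2 and 3 correlate. These values therefore do not show that numbers 2 and 3 were paired. The block and the pairs of arrays treat equal numbers as paired, and the fits do not unless the block is named. Promoters cover 250 bases before the RefSeq start.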

Additional observations from a re-analysis of the deposited data

Results flagged for a closer look

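For 9 genes (0.0495% of those tested) the change from siCon to siCon_IFNg_GW differed between number 1 and numbers 2 and 3 (limma interaction, adjusted p under 0.05; 1 array per group in number 1, so the spread comes from the other numbers). The change in number 1 minus that in the other numbers was negative for Ccl3 (difference of log2 changes -2.65, adjusted p = 0.0016), Il1b (-2.06, adjusted p = 0.032), Egr1 (-1.96, adjusted p = 0.046), Il1a (-1.80) and Cyp1a1 (-1.79, both adjusted p = 0.027). In the pairs numbered 1, 2 and 3 Cyp1a1 changed by -1.54, 0.25 and 0.26 and Il1b by -0.17, 1.76 and 2.01, so both had the opposite sign in number 1, while Ccl3, Egr1 and Il1a were higher with both agents in all pairs. For each of these 5 genes siCon number 1 was the highest untreated array: Ccl3, a chemokine gene, was at 11.02 there against 7.71 and 7.68, and Il1b, an inflammatory cytokine gene, at 9.23 against 5.16 and 5.26. With both agents Ccl3 had 11.58, 10.95 and 10.86, so its treated arrays lay closer together than the untreated ones.

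The difference was positive for the immediate-early genes Egr4 (3.11), Fosb (3.00) and Arc (2.25) and for the Notch target Nrarp (1.66), with adjusted p = 0.027, 0.027, 0.046 and 0.025. Fosb was at 6.19, 6.30 and 6.26 in siCon and at 10.45, 7.84 and 7.22 with both agents, and Egr4 went from 5.35, 5.53 and 5.34 to 8.75, 6.01 and 5.45. These genes were thus alike on the untreated arrays and highest on the treated array numbered 1. Apart from Egr1 the 9 genes were named because they passed this test.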

How the results depend on the processing

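The count of 157 genes was 1242 with the replicate block, 805 with the block and median centring, 779 with the block and without number 1, and 1604 with number 1 as a batch block, an alternative chosen after seeing the data. It was 79 after median centring over all rows (60 higher, 19 lower), 94 over all 36685 rows and 32 from the 6 arrays alone. Leaving out 1 array or 1 number gave 0 to 1028. It stayed within 1.5 times for quantile normalization (158), the filter on background (208), trended and robust eBayes (162) and the mean of a gene's rows (157). The count of 9 genes whose change differed in number 1 was 0 from the 6 arrays alone (2613 at an unadjusted p under 0.05 by limma), 1 over all rows, 106 with the filter on background and 191 with trended and robust eBayes. Of 106 genes of the naming rule 45 passed. After median centring 35 of them passed, and 44 after quantile normalization. With the mean of a gene's rows 43 of them passed, with the block 45 and from the 6 arrays 17. With the block another 22 passed. No called gene of the rule turned its sign in any alternative run. For the runs that left out arrays or added a block, the lack of overlap fixed this outcome. Scaling moved the median of all genes to between -0.03 and -0.01. Levels near background, as for Cxcl9 and Nos2, limit what a fall can show.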

Other observations

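Some of the genes that fell encode mitochondrial proteins; they were picked after their values were seen and no list of them was tested. Beside Slirp they include the mitochondrial ribosomal protein genes Mrps17 (-0.60), Mrpl36 (-0.50) and Mrpl30 (-0.44), the complex I subunit gene Ndufv3 (-0.45), Coa8, which acts in assembly of cytochrome oxidase (-0.51), and Mcee, an epimerase of propionate breakdown (-0.64). Mrps17 was at 7.58, 7.72 and 7.57 in siCon and at 6.74, 7.22 and 7.10 with both agents (SE 0.12, limma adjusted p = 0.044). Each passed over all 12 arrays, with falls of under 2-fold, and the call for Mrpl36 ended without number 1 (adjusted p = 0.056).

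Several genes outside the naming rule, picked after their values were seen, rose in the same comparison. Rgs16, a brake on G protein signals, had 2.25 (SE 0.40, limma adjusted p = 0.031) with both agents and 2.29 with interferon-γ alone, with 9.92, 10.28 and 10.18 on the arrays of the latter and 10.83, 9.88 and 9.58 with both. Arid5a, which stabilises inflammatory mRNAs, had 1.68 and 1.53 in the same order, and Stx11, a syntaxin of immune cell secretion, 1.85 and 1.55.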
